A study of Rattus norvegicus with 15 samples.

Results

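The rat heart microRNAs miR-208 and miR-499, each encoded inside a myosin heavy chain gene, were examined in an array study of diabetic and control hearts. They were chosen by name, as the miRNAs that the array files call rno-miR-208 and rno-miR-499, and make up 2 of the 350 rat miRNAs on the array and 4 of its 938 probes, 2 probes each. The hearts came from male Sprague-Dawley rats in 3 groups of 5 arrays. GF (glucose fluctuation) rats received streptozotocin at 60 mg/kg into a tail vein, had plasma glucose above 300 mg/dL, and then went without food for 24 h and had insulin (0.5 IU/kg) injected into the abdomen. DM (diabetes mellitus) rats received the same streptozotocin injection and also had plasma glucose above 300 mg/dL, without the fast and the insulin. Veh rats were exposed to vehicle. Streptozotocin is toxic to pancreatic beta cells, which make insulin, so the toxin, the loss of insulin and the high glucose come together in both diabetic groups. The fast and the injected insulin belong to GF alone and cannot be told apart from the glucose swings themselves. The labels used here give no age and name no chamber of the heart. Total RNA of the heart was labelled with Cy3 (100 ng per array). In such bulk RNA, fewer cells of a type and less RNA per cell cannot be told apart.

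A miRNA is a short RNA that guides the silencing machinery to messenger RNAs, mainly through its seed, the bases 2 to 8 from its 5′ end. miR-208 is cut from an intron of Myh6, which encodes the alpha (fast) myosin heavy chain of the heart, and miR-499 from an intron of Myh7b, a related myosin gene. In mice, miR-208 is needed for the rise of the beta (slow) myosin heavy chain under stress or low thyroid hormone, and it represses, among others, the Mediator subunit Med13. In mice, miR-499 acts on muscle fibre type, and Sox6, a repressor of slow-muscle genes, is a known target of miR-499.

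The mature sequences are shown because the 2 miRNAs share most of their seed, so that a difference between them in signal concerns closely related RNAs. The capitals mark the seed (RefSeq, GRCr8 assembly; both members were matched).
miR-208 (rno-miR-208a-3p): aUAAGACGagcaaaaagc
miR-499 (rno-miR-499-5p): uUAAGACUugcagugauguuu
miR-208b (rno-miR-208b-3p): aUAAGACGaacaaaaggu
Counted from 1 at the 5′ end, miR-208 and miR-499 are identical at 6 of the 7 seed bases and differ at the last of them (G8U). Over the 18 bases that can be set side by side without gaps, 10 are identical, and the substitutions outside the seed are A1U, A9U, A13G, A14U, A15G, G17U and C18G. Of 724 mature rat miRNAs in the RefSeq table, 3 carry the same bases 2 to 7: these 2 and miR-208b, whose gene lies in Myh7, the gene of the beta chain. miR-208b shares the whole seed with miR-208 and differs at 3 positions (G10A, A16G and C18U). The array held no rat miRNA named miR-208b, and whether the miR-208 probes also bind it was not tested.

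The hairpins are shown because the members come from opposite arms of their precursors. The capitals mark the mature miRNA.
Mir208a: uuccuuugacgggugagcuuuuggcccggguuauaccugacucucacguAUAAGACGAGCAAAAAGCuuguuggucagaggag
Mir499a: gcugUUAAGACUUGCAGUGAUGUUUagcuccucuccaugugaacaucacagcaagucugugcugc
miR-208 occupies bases 50 to 67 of its 83-base hairpin, on the 3′ arm, and miR-499 bases 5 to 25 of its 65-base hairpin, on the 5′ arm. On GRCr8, Mir208a lies on the minus strand of chromosome 15 from 32395552 to 32395634, inside Myh6 (32388102 to 32413663). Mir208b lies on the same strand from 32421615 to 32421726, inside Myh7 (32416525 to 32439851). Mir499a lies on the plus strand of chromosome 3 from 164570612 to 164570676, inside Myh7b (164537211 to 164582441). Each hairpin runs on the strand of its host gene. The other arms of the hairpins were not analysed here.

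Signals are given as the log2 of the background-subtracted probe signal, scaled between arrays to the 75th percentile of the probes detected on all 15 arrays; the brighter probe of a miRNA stands for it. In 5 cases, 2 arrays of 1 group on different slides differed by less than the scanner software's stated error (reduced chi-square 0.243 to 0.63, against 1.07 to 7.70 for the other 100 pairs of arrays). Each such pair was averaged and counted once, which left 3 GF, 3 DM and 4 Veh samples: GF 1+5, GF 2+4 and GF 6, DM 1, DM 2+4 and DM 3+5, and Veh 1+3, Veh 2, Veh 4 and Veh 5, named by their replicate numbers. Whether every array stands for its own rat is not given in the labels, so p-values measure the spread between these samples, which may be technical in part. As a check of tissue, miR-1 and miR-133a, made mainly in heart and skeletal muscle, were well above background on 15 of 15 arrays. The liver miRNA miR-122 and the neuronal miR-124 were so on 0. Of the epithelial miRNAs listed, miR-200c was so on 15 of 15 arrays, miR-141 on 12 and miR-205 on 0. The 75th percentile itself was 2170 to 3120 in GF, 1749 to 2253 in DM and 1832 to 2441 in Veh samples, so that GF arrays were on the whole brighter before scaling. A difference was called when its Benjamini-Hochberg adjusted limma p, over the 165 miRNAs tested, was under 0.05.

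Both members were strong signals in every heart. Each of the 4 probes was printed on 10 spots per array, and all 300 spots of miR-208 and all 300 of miR-499 were well above background, with 0 saturated. The spots of a probe varied by a coefficient of variation of 0.819% to 5.23% for miR-208 and 0.835% to 15.4% for miR-499, and 8 and 15 of their spots carried an outlier flag and were left out. The software's total signal per miRNA, before scaling, ran from 958 to 3411 for miR-208 (stated error 7.46% to 7.58%) and from 2648 to 5052 for miR-499 (7.75% to 7.87%). Within the 5 averaged pairs, the scaled signal of the 2 arrays differed by 0.0047 to 0.075 for miR-208 and by 0.023 to 0.080 for miR-499. The number of samples limits the precision of what follows.

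The comparison of GF with Veh hearts asked what differs in diabetes with glucose fluctuation. miR-208 fell in GF hearts, with less signal in every GF sample than in any Veh sample, while the GF and Veh values of miR-499 lay close together. The scaled signal of miR-208 (log2) was 10.16, 10.10 and 10.49 in the GF samples 1+5, 2+4 and 6, against 11.85, 11.80, 11.61 and 11.10 in the Veh samples 1+3, 2, 4 and 5. GF 6 was the highest of its group and Veh 5 the lowest of its own, and the groups did not overlap. Over 156 miRNAs, Veh 5 was closer to the arrays of DM 1 and DM 2+4 (reduced chi-square 1.15 to 1.91) than to the other Veh arrays (3.25 to 4.09). GF samples averaged 10.25 ± 0.21 (SD, n = 3) and Veh samples 11.59 ± 0.34 (SD, n = 4). The log2 difference was -1.34 (SE 0.28, 95% interval -1.98 to -0.71, limma adjusted p = 0.0194), a fall of 2.54-fold. Against this, 7.88% of the tested miRNAs were called in this comparison, 13 of 165, 4.85% were called lower, and in 19.4% every GF sample lay below every Veh sample. miR-208 had the second lowest log2 difference of the 165, whose median was -0.055. As a share of the Veh mean, its GF signals were 37.0%, 35.5% and 46.6%.

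The call for miR-208 rested on several single samples. Its difference ran from -1.50 to -1.26 when each sample was left out in turn, and its adjusted p was 0.0655 without Veh 1+3, 0.0653 without Veh 2, 0.0637 without Veh 4 and 0.107 without GF 2+4. The difference was -1.69 within slide 1 (2 GF and 2 Veh arrays, adjusted p = 0.0620) and -1.27 within slide 2 (3 GF and 3 Veh arrays, adjusted p = 0.0976).

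**Figure D1:**
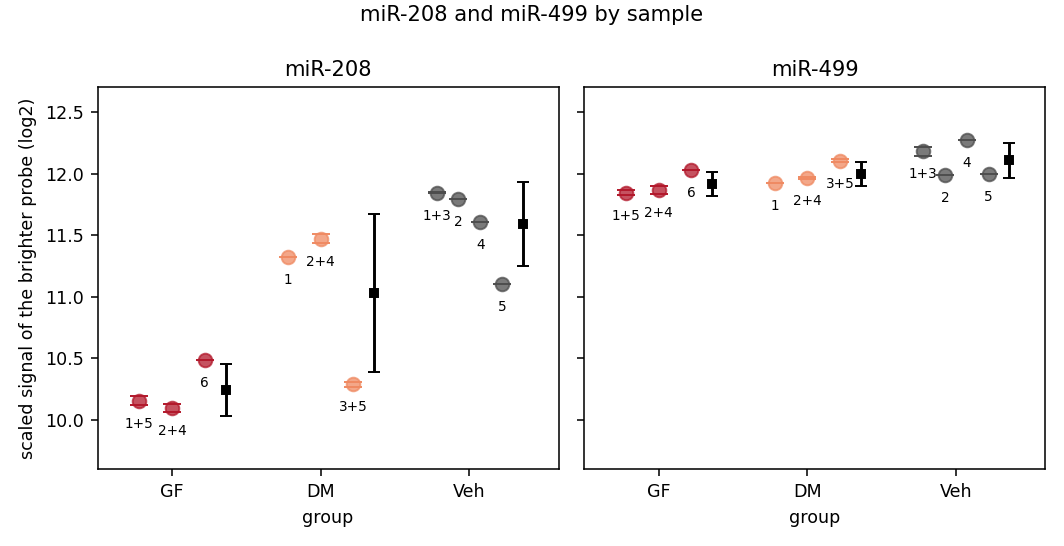
Scaled signal (log2) of the brighter probe of miR-208 and of miR-499 in each sample of the GF, DM and Veh groups; circles are samples named by replicate number, short bars the arrays averaged in them, and squares with whiskers the group mean ± SD. For miR-208 the GF samples lie between 10.10 and 10.49, all below the Veh samples, and DM 3+5 lies at 10.29, while for miR-499 the samples of all groups lie between 11.85 and 12.27.

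For miR-499 the scaled signal (log2) was 11.85, 11.87 and 12.03 in the GF samples 1+5, 2+4 and 6, against 12.18, 11.99, 12.27 and 11.99 in the Veh samples 1+3, 2, 4 and 5. GF 6 lay above Veh 2 and Veh 5, so the groups overlapped. Means were 11.91 ± 0.10 (SD, n = 3) in GF and 12.11 ± 0.14 (SD, n = 4) in Veh samples, a log2 difference of -0.19 (SE 0.096, limma adjusted p = 0.194). Its 95% interval ran from -0.41 to 0.021, which does not show that the groups were alike. With all 15 arrays taken as independent, which counts the averaged pairs double, the difference was -0.23 and passed (adjusted p = 0.0179). Left unscaled it was 0.13, with a median of 0.25 over the 165 miRNAs, and that of miR-208 was -1.02.

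**Figure D2:**
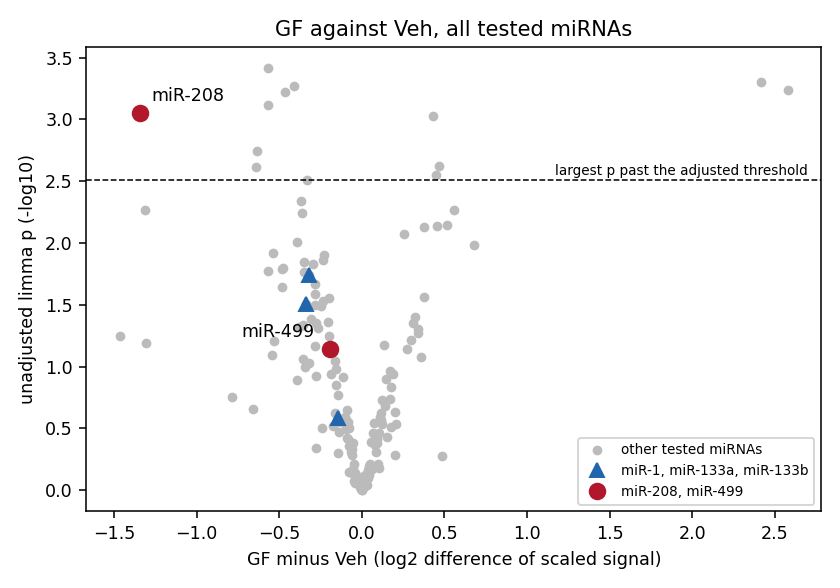
Log2 difference GF minus Veh (x) against the unadjusted limma p on a -log10 scale (y) for the 165 tested miRNAs, with miR-208 and miR-499 in red and the other muscle miRNAs as blue triangles; the dashed line is the largest p past the adjusted threshold. miR-208 lies above the line at -1.34, and miR-499 (-0.19) and the blue triangles (-0.34 to -0.14) lie below it.

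The comparison of DM with Veh hearts asked what differs in diabetes with sustained high glucose. Neither member was called, and the DM samples differed among themselves for miR-208. Its scaled signal (log2) was 11.32, 11.47 and 10.29 in the DM samples 1, 2+4 and 3+5, against 11.10 to 11.85 in the Veh samples. DM 1 and DM 2+4 lay among the Veh samples, and DM 3+5 lay among the GF samples (10.10 to 10.49). Both arrays of DM 3+5, on different slides, gave this low value (10.27 and 10.31). The likeness of this sample to GF was not limited to miR-208. Over 156 miRNAs, its arrays were closer to the GF arrays (reduced chi-square 2.53 to 3.63) than to the other DM arrays (4.87 to 5.59). As a share of the Veh mean, the DM signals of miR-208 were 83.3%, 92.1% and 40.7%. The SD of miR-208 over DM samples was 0.64, where the median SD of the tested miRNAs was 0.13 and 7 of the 165 had a larger one. The log2 difference from Veh was -0.56 (SE 0.28, 95% interval -1.19 to 0.074, limma adjusted p = 0.546), and it was -0.19 without DM 3+5. In this comparison 0% of the tested miRNAs were called (0 of 165 in limma), and 8.48%, 14 miRNAs, had an unadjusted p under 0.05.

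For miR-499 the DM samples 1, 2+4 and 3+5 had scaled signals (log2) of 11.92, 11.96 and 12.11, against 11.99 to 12.27 in the Veh samples, and the groups overlapped. The sample with the lowest miR-208 of the DM group, DM 3+5, was the one with the highest miR-499. The log2 difference of miR-499 from Veh was -0.11 (SE 0.096, 95% interval -0.33 to 0.10, limma adjusted p = 0.663). Scaled to the hur control spots it was 0.028.

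The series title asks how fluctuating glucose differs from steadily high glucose, which is the comparison of GF with DM. miR-208 had a lower mean in GF, but DM 3+5 lay within the range of the GF samples. Its log2 difference was -0.78 (SE 0.30, 95% interval -1.46 to -0.10, limma adjusted p = 0.408). Left unscaled it was -0.34 (adjusted p = 0.333), and with the authors' deposited log2 values it was -0.36 (adjusted p = 0.354). Without DM 3+5 it was -1.15 and passed (adjusted p = 0.0245), with the other 2 DM samples above every GF sample; that sample was singled out after its value was seen. In the fit of all samples 0% of the tested miRNAs were called (0 of 165 in limma), and 10.9%, 18 miRNAs, had an unadjusted p under 0.05. For miR-499 the log2 difference between GF and DM was -0.083 (SE 0.10, 95% interval -0.31 to 0.15, limma adjusted p = 0.773), and it turned to 0.36 without any scaling (median over the 165 miRNAs 0.35) and to 0.040 with the 75th percentile over all probes.

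In order of mean level, miR-208 was lowest in GF (10.25), then DM (11.03), then Veh (11.59), and miR-499 was in the same order (11.91, 12.00 and 12.11). Only the outer pair of this order, GF and Veh, differed by the test, and only for miR-208; neither neighbouring pair did for either miRNA. The samples of every group enter more than 1 of these comparisons, so the comparisons are not independent of each other.

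Each miRNA was measured by a pair of probes. The brighter probe of miR-208 (A_26_P00002589) gave the values above, and its dimmer probe (A_26_P00001470) had means of 9.11 ± 0.21 in GF samples, 9.96 ± 0.71 in DM samples and 10.56 ± 0.37 in Veh samples (SD over 3, 3 and 4). In a fit of all 300 tested probes, the dimmer probe differed between GF and Veh by -1.45 on the log2 scale (SE 0.31, limma adjusted p = 0.0199) and the brighter one by -1.34 (SE 0.28, adjusted p = 0.0199). Here 8% of the probes, 24 of 300, were called. Both probes of miR-208 passed in this comparison. For miR-499 the dimmer probe (A_26_P00001738) gave a log2 difference between GF and Veh of -0.19 (SE 0.099, adjusted p = 0.225), and the brighter one (A_26_P00001739) of -0.19 (SE 0.096, adjusted p = 0.191). Neither passed. Between DM and Veh and between GF and DM, 0% of probes were called.

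**Figure D3:**
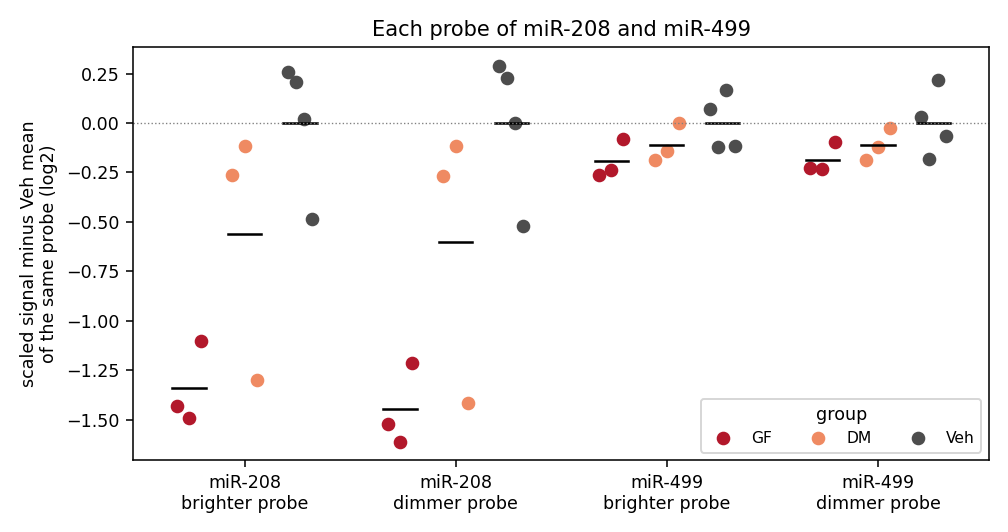
Scaled signal (log2) of each of the 4 probes minus that probe's Veh mean, by sample, with GF, DM and Veh from left to right within a probe and a black bar at the group mean. The brighter and dimmer probe of a miRNA show a similar arrangement of samples, with the GF means at -1.34 and -1.45 for miR-208 and at -0.19 for both probes of miR-499.

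The ratio of the members within a sample does not depend on how arrays are scaled by a single factor. Relative to its mean in Veh samples, the log2 ratio of miR-208 to miR-499 was -1.17, -1.25 and -1.02 in the GF samples 1+5, 2+4 and 6. In the DM samples 1, 2+4 and 3+5 it was -0.076, 0.026 and -1.30, and in the Veh samples 1+3, 2, 4 and 5 it was 0.19, 0.33, -0.14 and -0.37. The GF samples and DM 3+5 lay together, at or below -1.02, and the remaining DM samples lay within the Veh range. GF samples had a mean of -1.15 ± 0.12 (SD, n = 3), DM samples one of -0.45 ± 0.74 (SD, n = 3), and the SD of the Veh samples was 0.32 (n = 4). The GF samples therefore carried less miR-208 per miR-499 than any Veh sample, which shows unequal change and not that miR-499 was constant. Across 8 other scalings, summaries and background corrections the GF minus Veh value of this ratio ran from -1.21 to -1.11. Several of these could not move it, because a factor per array cancels in the ratio. No scaling, hur scaling and the 75th percentile over all probes thus gave the same -1.15. The total gene signal and the authors' values, which differ only by such a factor, both gave -1.18. Quantile normalization gave -1.12, the mean of all probes -1.21 and the other background correction -1.11. No p is given, because the pair was chosen with earlier results known.

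**Figure D4:**
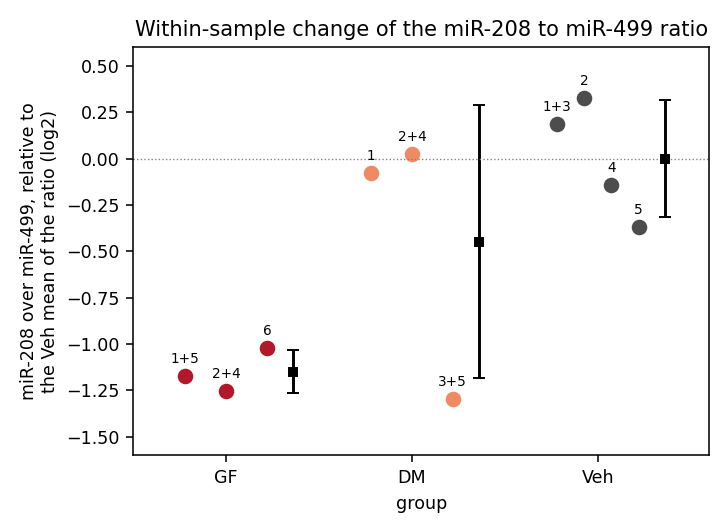
Log2 ratio of miR-208 to miR-499 in each sample, relative to the mean ratio of the Veh samples, with the group mean ± SD as squares. The 3 GF samples lie between -1.25 and -1.02, DM 3+5 at -1.30, the other DM samples at -0.076 and 0.026, and the Veh samples between -0.37 and 0.33.

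The other muscle miRNAs on the list (miR-1, miR-133a, miR-133b, miR-206 and miR-208b) were read beside the members. Of the 5, 3 were tested. miR-206, a miRNA of skeletal muscle, was well above background on 0 of 15 arrays, and the array held no rat miRNA named miR-208b. Among the 3 tested, 0 were called higher and 0 lower in limma in any comparison. Every GF sample of miR-133a nonetheless lay below every Veh sample (highest GF 11.03, lowest Veh 11.13), as for miR-208 and for 19.4% of the tested miRNAs. The GF and Veh samples of miR-1 and miR-133b overlapped. For miR-1, which promotes muscle differentiation, the log2 difference GF minus Veh was -0.14 (SE 0.12, limma adjusted p = 0.473). It was -0.34 (SE 0.13, adjusted p = 0.126) for miR-133a and -0.32 (SE 0.11, adjusted p = 0.0910) for miR-133b, both known for restraining growth of heart muscle cells. The median of the 3 was -0.32 in GF minus Veh and -0.18 in DM minus Veh, beside -0.055 and 0.027 over all tested miRNAs. In DM 3+5, where miR-208 was at 40.7% of the Veh mean, the scaled signals (log2) of miR-1, miR-133a and miR-133b were 15.84, 10.96 and 16.08, against 15.61 to 16.10, 11.13 to 11.69 and 15.98 to 16.45 in the Veh samples.

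Markers of other cell types moved with miR-208 in part. Of the 3 epithelial miRNAs listed, miR-141 and miR-200c were tested and both were called higher in GF than in Veh (log2 2.41 and 2.58, limma adjusted p = 0.0194 each), while miR-205 was well above background on 0 of 15 arrays. Summed scaled signals (log2) of the 3 were 8.42 to 8.81 in GF, 6.80 to 8.73 in DM and 6.09 to 7.12 in Veh samples. In these sums miR-205 counted at the floor set for dim signals (log2 4.31) in every sample. miR-141 was also at this floor in Veh 1+3, Veh 2 and Veh 4. The Veh sums and the difference of miR-141 therefore depend in part on the floor. Sample by sample, the 4 samples with the lowest miR-208, the 3 GF samples and DM 3+5, had the 4 highest epithelial sums (8.81, 8.42, 8.45 and 8.73), and Veh 5, with the lowest miR-208 of its group, had the highest epithelial sum of its group (7.12). The other lists were summed in the same way. Endothelial miRNAs (miR-126 and miR-126*) lay at 13.93 to 14.05 in GF, 14.09 to 14.34 in DM and 14.23 to 14.54 in Veh samples, with 0 of 2 called. Red cell miRNAs (miR-144 and miR-451) lay at 12.17 to 12.54, 11.75 to 12.59 and 12.59 to 12.84 in GF, DM and Veh samples, with 0 of 2 called. Of 5 leukocyte miRNAs 4 were tested and 1, miR-142-5p, was called lower in GF than in Veh (log2 -0.64, limma adjusted p = 0.0367). The list did not move in 1 direction: miR-142-3p was at -0.48 (adjusted p = 0.0887), miR-150 at -0.0097 and miR-223 at 0.51 (adjusted p = 0.0611). Leukocyte sums were 11.87 to 12.10 in GF, 11.91 to 12.24 in DM and 12.10 to 12.18 in Veh samples. Smooth muscle sums (miR-143 and miR-145) overlapped between all groups, at 13.79 to 14.15 in GF, 13.85 to 14.01 in DM and 13.51 to 14.21 in Veh samples. The part of these markers in the miR-208 values was not tested.

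Likeness of pattern was measured as Pearson's r of the scaled log2 signal over the 10 samples, which share arrays and scaling factors, and is given as a description. miR-208 was most like miR-146a (r = 0.92, and 0.75 for deviations from group means), miR-345-5p (0.91 and 0.69) and miR-142-5p (0.88 and 0.70). These 3 were called lower in GF than in Veh, with log2 differences of -0.46, -0.33 and -0.64, where 4.85% of the tested miRNAs were called lower. The r that picked them includes the group difference of miR-208, so their lower values in GF were in part fixed by the choice. miR-499 was most like miR-181d (r = 0.89, and 0.86 for deviations), let-7b (0.885 and 0.81) and miR-181c (0.84 and 0.76). Of these, miR-181d was called lower in GF than in Veh (log2 difference -0.63, limma adjusted p = 0.0329), and the differences of let-7b (-0.20, adjusted p = 0.174) and miR-181c (-0.28, adjusted p = 0.126) did not pass. The members were less like each other (r = 0.50, and -0.071 for deviations from group means), and miR-499 was number 46 in order of likeness to miR-208.

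The authors' deposited table of 35 miRNAs past an uncorrected test over the 3 groups listed 1 of the 2 members, miR-208, with p = 0.00236. In the authors' deposited table its log2 fold change was -1.13 for GF over Veh, -0.73 for DM over Veh and 0.41 for DM over GF. The last is taken in the opposite order from GF minus DM above and likewise means less miR-208 in GF than in DM. That table names its groups High Glucose and High and low glucose, taken here as DM and GF. Those values had no scaling between arrays and counted all 15 arrays.

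**Figure D5:**
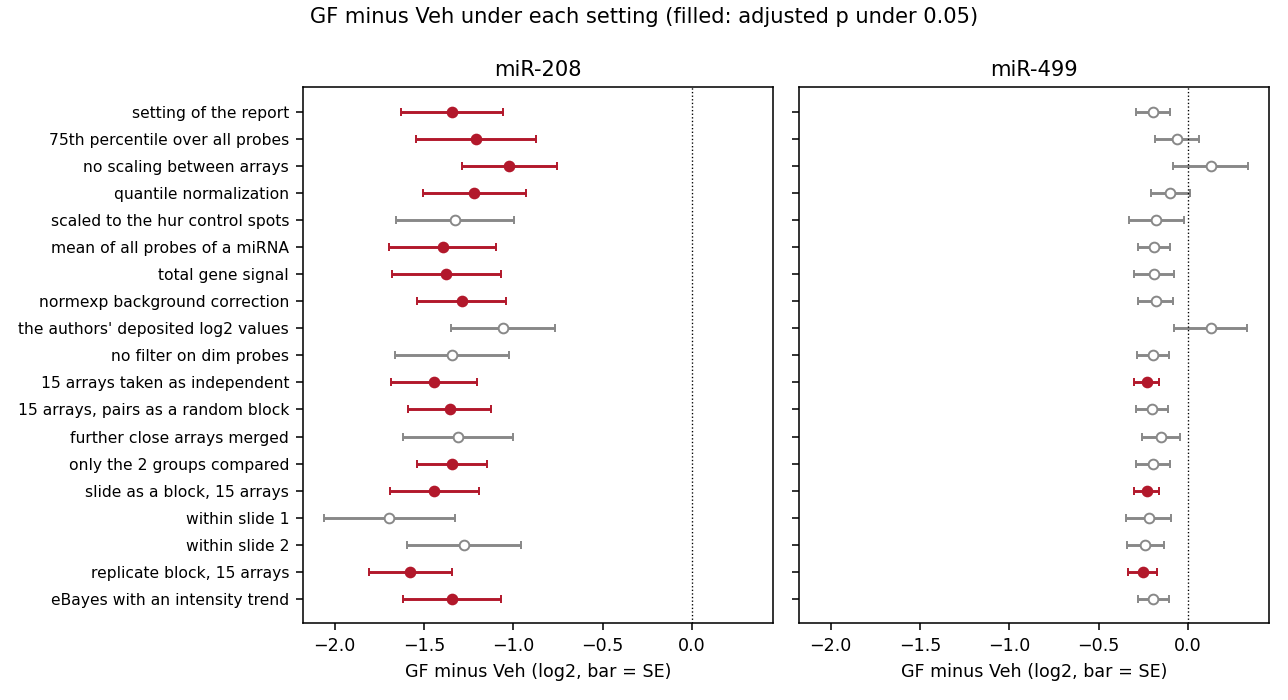
Log2 difference GF minus Veh (points, with SE bars) for miR-208 and miR-499 under the setting of the report and each alternative, filled in red where the adjusted limma p was under 0.05. All points of miR-208 lie between -1.69 and -1.02, and those of miR-499 between -0.25 and 0.13.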

How the data were processed

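The deposited array files hold, per the file headers, 1-colour spot intensity from Agilent Feature Extraction 9.5.3.1, which the submitters' processing notes also name: background-subtracted processed signals, with flags for outliers, saturation and signal well above background, and a total signal and error per miRNA. The authors' deposited log2 table of 149 miRNAs was recomputed from the total signals as log2 minus the Veh mean, to within 2.05e-06. The authors' deposited list of 35 miRNAs adds an uncorrected p-value and log2 fold changes, which equal differences between the group means of the log2 values.

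Here spots flagged as outliers were left out and the remaining spots of a probe averaged. Arrays were scaled to the 75th percentile of the 254 probes detected on all 15 arrays, values under 19.8 were set to that floor, and log2 was taken. The brighter probe stood for a miRNA. A miRNA was kept if its probe was well above background on 3 or more of the 5 arrays of any group, and the 165 of 350 that were kept were tested with limma 3.58.1 (R 4.3.3) in 1 fit of GF, DM and Veh, two-sided, with Benjamini-Hochberg adjustment and a threshold of 0.05. Arrays of 1 group with a reduced chi-square under 1 against each other, over 156 miRNAs, were averaged and counted once. The fit was tested on simulated data. Groups and replicate numbers came from the sample titles.

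The members and lists were chosen with earlier results of these data known. Named miRNAs are the members, the listed muscle miRNAs, the cell type markers and, for each member, the 3 most correlated miRNAs. Alternatives covered scaling, summary over probes, background, filter, sample sets, blocks, the authors' values and leaving out each sample. The array files hold no mean spot signal, so normexp was run on the median signal, a choice made after seeing the data. Sequences and gene positions are from RefSeq (GRCr8).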

Additional observations from a re-analysis of the deposited data

How the results depend on the processing

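Over 30 alternatives, miR-208 was lower in GF than in Veh in all, with log2 differences of -1.69 to -1.02 and limma adjusted p of 0.000531 to 0.12, and was called in 20. Some of these cannot move the difference from -1.34, only its p. They are the brighter probe alone, no filter, only the 2 groups compared, the intensity trend and leaving out a DM sample. Outside the single samples left out (-1.50 to -1.26), it missed the threshold when scaled to the hur control spots (-1.33), with the authors' deposited log2 values (-1.06), with no filter on dim probes (-1.34), with further arrays merged (-1.31), within slide 1 (-1.69) and within slide 2 (-1.27). For miR-499, GF minus Veh passed with 15 independent arrays (-0.23), slide as a block (-0.23) and the replicate block (-0.25), and turned sign with no scaling and with the authors' values (0.13 each). Its DM minus Veh turned to 0.028 with hur scaling, and its GF minus DM to 0.040 (75th percentile over all probes), 0.36 (no scaling) and 0.37 (authors' values). Leaving out 1 sample gave, for miR-499, -0.25 to -0.14 (GF minus Veh), -0.17 to -0.057 (DM minus Veh) and -0.14 to -0.028 (GF minus DM), and for miR-208, -0.78 to -0.19 (DM minus Veh) and -1.15 to -0.56 (GF minus DM). GF minus DM of miR-208 was -0.34 with no scaling and -0.36 with the authors' values, against -0.78 in the report.

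The 13 calls between GF and Veh became 2 with hur scaling, 2 with the authors' values, 21 with the mean of all probes, 22 with an intensity trend, 60 with 15 independent arrays, 57 with slide as a block, 50 with the replicate block, and 0 with no filter (46 at an unadjusted p under 0.05), with further arrays merged (35), within slide 1 (40) and within slide 2 (50). They split into 5 higher and 8 lower, against 15 and 1 with the 75th percentile over all probes and 16 and 2 with no scaling. The 0 calls between DM and Veh became 3 with 15 arrays, 3 with slide as a block, 2 within slide 2 and 4 with the replicate block. The 0 between GF and DM became 1 with no scaling, 1 with normexp, 6 with 15 arrays, 5 with slide as a block and 1 with the replicate block. Leaving out 1 sample gave 0 to 28, 0 to 2 and 0 to 6 calls for GF minus Veh, DM minus Veh and GF minus DM; the first was 0 without Veh 1+3, Veh 2, Veh 4 or GF 2+4, 28 without Veh 5, 24 without DM 3+5 and 8 without GF 6. Deviations of same-numbered arrays correlated with r from -0.53 to 0.47, over 0.1 in 6 of 13 pairs. Between Veh and GF arrays r was positive for each shared number (0.21, 0.15, 0.29 and 0.47 for numbers 1, 2, 4 and 5). Pairs with a DM array were mixed in sign (-0.53 to 0.29). The numbers were not taken as pairs in the report, and the replicate block above is the fit that uses them. The fits of 15 arrays count close pairs of arrays double, the fits within a slide or without a sample hold fewer samples, and the fit with no filter adjusts over more miRNAs; otherwise the cause was not tested.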
